A study of Mus musculus with 2 samples.

Results

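The 33 genes described here encode glucose and lactate transporters, enzymes of glycolysis, regulators of glycolytic flux, components of cellular oxygen sensing and other genes known to be induced when oxygen is low. They were chosen by symbol, from 32245 gene symbols, and were measured in 2 single-nucleus RNAseq libraries of injured mouse tibia. The first library held the periosteum, the sheath that covers the bone, with the hematoma at day 1 post-fracture. The second held the periosteum with the hematoma and callus at day 5 after musculoskeletal traumatic injury (MTI), a tibial fracture with compression of the muscles around it. Both came from C57BL6 mice, given as wild-type and 10 to 14 weeks old, males and females mixed, with the tibias of 3 or 4 animals pooled and their nuclei sorted on a DNA dye. There was 1 library per condition, so no test could be run between animals, and every interval below is a 95% interval that covers counting error only. Day, injury and depth differed together between the libraries, and their values are only set side by side.

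Glycolysis splits glucose to pyruvate in the cytosol, and lactate dehydrogenase turns pyruvate into lactate that is then exported. When oxygen is low, prolyl hydroxylases no longer mark the alpha subunits of the hypoxia-inducible factors (HIF) for destruction, and the factors induce many genes of this pathway. A fracture tears vessels, and the hematoma and early callus are known as poorly oxygenated tissue in which innate immune cells arrive. Myeloid cells and fast muscle fibres are both known for a high glycolytic capacity.

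After filtering, 2405 nuclei were retained at day 1 (median 409 UMIs, unique molecules counted per nucleus) and 1127 at day 5 post-MTI (median 2364 UMIs). All 33 genes were detected in both libraries, with 1969 UMIs in the retained nuclei at day 1 and 9996 at day 5 post-MTI. At least 20 UMIs were counted for 26 of them at day 1 and for 31 at day 5 post-MTI, where the carbonic anhydrase gene Car9 (10 UMIs) and the peptide hormone gene Adm (11 UMIs) fell short. Nuclei were named by marker genes, and a name ends in "-like" because it rests on this clustering. At day 5 post-MTI, 12 populations were named, and 244 of the nuclei stayed unnamed. In the clustering of all nuclei, a cluster of 27 was named dendritic and a cluster of 32 lymphoid. When immune nuclei were clustered again, no sub-cluster was named dendritic, and the lymphoid-like one held 51 nuclei. Some lymphoid-like nuclei thus come from outside the first lymphoid cluster. Arg1 macrophage-like nuclei were named by the list Arg1, Hmox1, Slc7a11, Ptgr1, Gclm and Spp1. Their 10 leading genes among immune nuclei held Ptgr1 and Gclm but not Arg1. Me1, Aox1, Prdx1 and Prdx6 were also among these leading genes. The name rests on the list as a whole and not on Arg1 alone. Among all nuclei, Arg1 was a leading gene of a wider macrophage cluster of 194 nuclei. The chondro-osteogenic-like nuclei are a skeletal sub-cluster of 104 nuclei named by the chondrocyte list. Ibsp, of the osteoblast list, was among its leading genes, and no sub-cluster was named osteoblast. The skeletal sub-clusters were named by progenitor, chondrocyte and osteoblast lists only. Fibrogenic nuclei were thus not set apart and may lie in either population. At day 1 only muscle fibre-like, immune-like and skeletal lineage-like nuclei were set apart, and 1072 stayed unnamed. The immune-like nuclei join a cluster named macrophage (291 nuclei) and a cluster named neutrophil (257 nuclei). The immune-like name at day 1 is weak, since the summed immune markers stood at 1254 CPM (UMIs of a gene or list scaled to the same total in every population) in these nuclei and at 1087 CPM in barcodes under 200 genes, which are taken as the free-RNA level. The 2 libraries shared 33 barcodes.

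A search for the core of the HIF binding motif, ACGTG or GCGTG on either strand, was made in the 250 bases before the transcript starts that RefSeq gives for these genes (GRCm38.p6). Of the 33 genes, 30 had an entry, while Epas1, Ndrg1 and Slc2a3 had none. At least 1 match lay before a start of 28 of the 30 genes (93.3%) and at least 2 before 21 (70.0%). Over all 27025 genes with an entry the shares were 41.5% and 18.7%, and over the 9855 genes with at least 20 UMIs at day 5 post-MTI they were 60.3% and 30.8%. A CACGTG, which holds the motif on both strands and is also the site of other factors, was counted as 2 matches in these shares. Other matches that share bases were also counted separately. A match describes letters in a window, not a bound site. The windows of 4 genes whose levels differed between myeloid populations are printed from 5′ to 3′ on the gene's strand, with the matches in capitals. They cover chr8:45999851-46000100 for Ankrd37, an ankyrin repeat gene, chr12:54203875-54204124 for Egln3, a HIF prolyl hydroxylase, and chr7:138909507-138909756 for Bnip3, a mitophagy receptor, all on the minus strand. The window of Slc16a3, the lactate exporter MCT4, is chr11:120948817-120949066 on the plus strand.
Ankrd37: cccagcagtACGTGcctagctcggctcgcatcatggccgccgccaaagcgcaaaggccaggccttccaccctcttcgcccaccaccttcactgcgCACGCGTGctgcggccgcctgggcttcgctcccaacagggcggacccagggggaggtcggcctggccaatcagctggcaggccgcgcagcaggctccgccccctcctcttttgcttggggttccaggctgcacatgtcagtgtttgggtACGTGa
Egln3: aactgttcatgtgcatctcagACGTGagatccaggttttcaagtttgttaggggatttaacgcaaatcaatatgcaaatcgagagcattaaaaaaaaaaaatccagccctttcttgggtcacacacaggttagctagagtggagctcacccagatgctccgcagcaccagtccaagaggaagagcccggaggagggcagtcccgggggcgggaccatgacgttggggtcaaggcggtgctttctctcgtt
Bnip3: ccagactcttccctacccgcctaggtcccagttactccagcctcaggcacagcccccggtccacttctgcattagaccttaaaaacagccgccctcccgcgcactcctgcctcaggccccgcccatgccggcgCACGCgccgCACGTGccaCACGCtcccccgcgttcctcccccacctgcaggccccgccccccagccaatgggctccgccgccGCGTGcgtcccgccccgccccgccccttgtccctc
Slc16a3: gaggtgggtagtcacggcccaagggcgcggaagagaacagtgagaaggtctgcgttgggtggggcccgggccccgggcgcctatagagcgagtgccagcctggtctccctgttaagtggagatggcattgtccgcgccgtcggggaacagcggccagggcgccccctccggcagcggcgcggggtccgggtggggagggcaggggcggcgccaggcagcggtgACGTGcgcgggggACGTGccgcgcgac
Ankrd37 held 4 matches, of which 2 share bases in a CACGCGTG, and Egln3 held 1. Bnip3 held 5, of which 2 are the strands of 1 CACGTG, and Slc16a3 held 2. The last bases of the Ankrd37, Bnip3 and Slc16a3 windows overlap an exon of a GENCODE transcript of the same gene. By the GENCODE gene positions, the Ankrd37 and Slc16a3 windows lie wholly within the span of the gene and not upstream of it.

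To find where the genes were expressed after trauma, their UMIs were summed in each population at day 5 post-MTI. The summed level was highest in monocyte-like nuclei, at 6151 CPM (5773 to 6546, 56 nuclei), followed by neutrophil-like nuclei at 5451 CPM (4914 to 6031, 84 nuclei) and by Arg1 macrophage-like nuclei at 3689 CPM (3434 to 3959, 43 nuclei). The intervals of the first 2 overlap, and both lie above that of the third. Macrophage-like nuclei followed at 2509 CPM (2415 to 2605, 248 nuclei), chondro-osteogenic-like nuclei at 2217 CPM (2121 to 2317) and skeletal progenitor-like nuclei at 2039 CPM (1806 to 2294). The macrophage-like level pools sub-clusters from 1286 to 4051 CPM. Muscle fibre-like nuclei stood at 1880 CPM and endothelial-like nuclei at 1757 CPM, within counting error of each other. The lowest levels were those of erythroid-like (1333 CPM), osteoclast-like (1326 CPM), lymphoid-like (1236 CPM) and muscle stem or progenitor-like nuclei (1100 CPM).

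**Figure D1:**
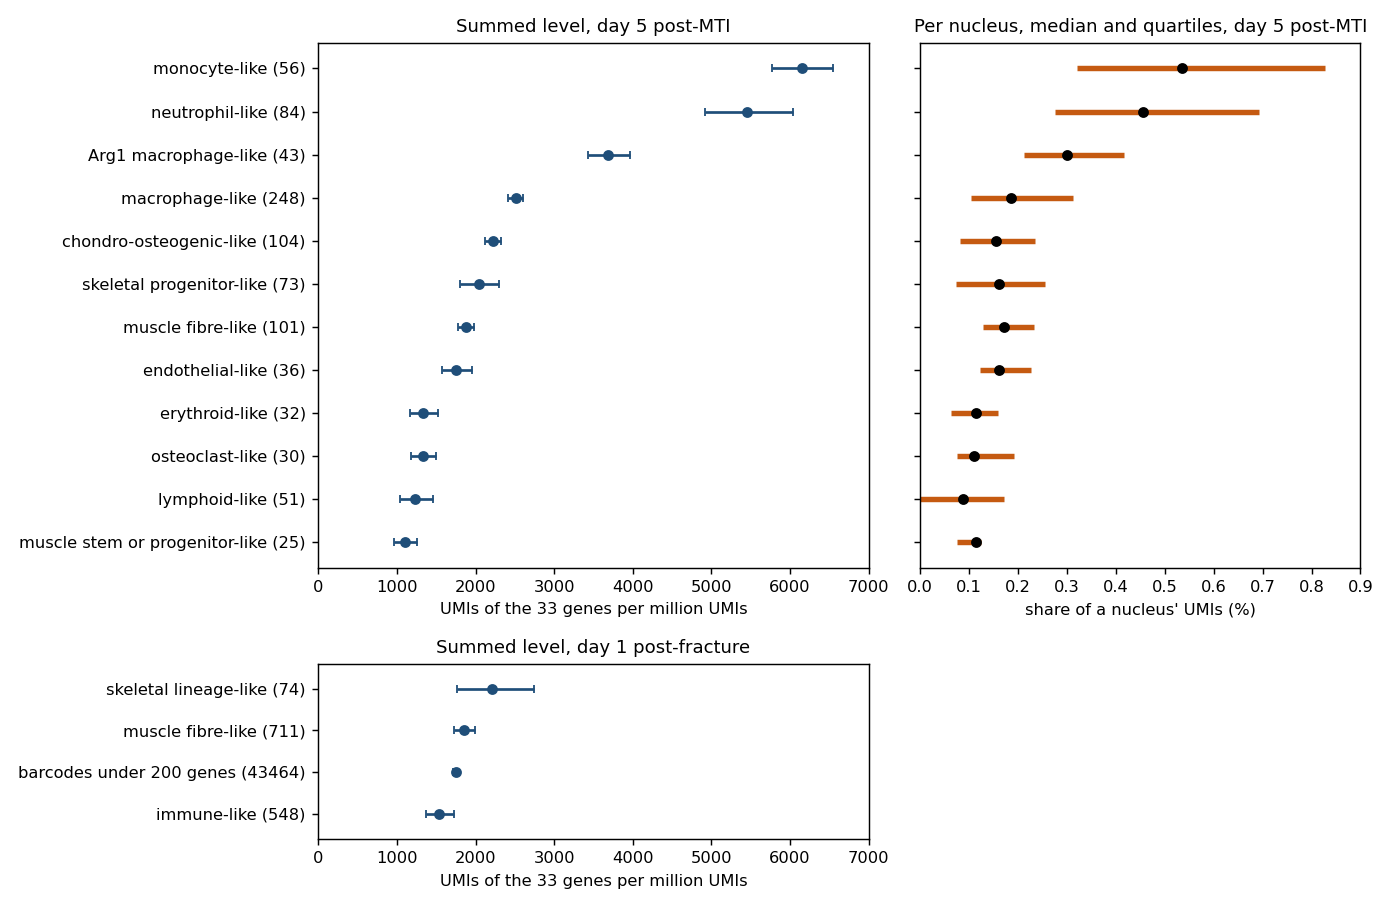
Summed level of the 33 genes in CPM, with 95% counting intervals, for named populations at day 5 post-MTI (upper left) and at day 1 post-fracture with the barcodes under 200 genes (lower left), and the share of each nucleus' UMIs that the genes took at day 5 post-MTI (upper right, median and quartiles over nuclei). Numbers of nuclei or barcodes stand in parentheses. Monocyte-like and neutrophil-like nuclei sit at 6151 and 5451 CPM, while all day 1 points lie between 1541 and 2214 CPM.

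By the medians over nuclei, the order held from monocyte-like to macrophage-like nuclei, but not among the populations below them. The genes took a median 0.534% of the UMIs of a monocyte-like nucleus (quartiles 0.321 and 0.828), 0.456% in neutrophil-like, 0.301% in Arg1 macrophage-like and 0.186% in macrophage-like nuclei. In lymphoid-like nuclei the median was 0.0872%. It was 0.155% in chondro-osteogenic-like, 0.171% in muscle fibre-like and 0.114% in muscle stem or progenitor-like nuclei. With every nucleus thinned to 500 UMIs, and no nucleus too shallow for it, 91.7% of neutrophil-like and 85.7% of monocyte-like nuclei kept a UMI of any of the genes, against 72.1% of Arg1 macrophage-like, 64.9% of macrophage-like and 37.3% of lymphoid-like nuclei. Without thinning these shares were 94.0%, 98.2%, 97.7%, 96.4% and 72.5%. The sum did not rest on a single gene, since it stood at 5466 CPM in monocyte-like nuclei without Hif1a and at 4625 CPM in neutrophil-like nuclei without Pfkfb3, their most counted members.

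Each population was then compared with all other retained nuclei of its library. A gene was counted as higher or lower where the ratio of the levels passed 1.5 in either direction, among genes with at least 20 UMIs in both sides together, and the same count over all genes serves as background. In monocyte-like nuclei 24 of 31 genes were higher and 6 lower, while 17.9% of all genes tested were higher and 48.1% lower. Where the interval also had to leave out 1, 22 were higher and 2 lower (9.6% and 12.9% of all genes). The median ratio of the 31 genes was 2.59, against 0.703 over all genes, and the summed ratio was 2.85 (2.67 to 3.05). In neutrophil-like nuclei 16 of 31 were higher and 5 lower (21.6% and 58% of all genes), 11 and 0 of them with an interval that left out 1 (8.65% and 9.75%), with a summed ratio of 2.42 (2.18 to 2.68). Arg1 macrophage-like nuclei had 17 higher and 7 lower (18% and 43%), 11 and 2 with such an interval (9.16% and 12.9%), and a summed ratio of 1.65 (1.53 to 1.78). For these 3 populations the summed ratio stayed above 1 under every alternative run.

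Macrophage-like nuclei were close to the rest, with 5 of 31 genes higher and 4 lower (17.9% and 37.9% of all genes), 5 and 3 with such an interval (15% and 29.4%), and a summed ratio of 1.12 (1.07 to 1.17). This direction depended on the settings, as the ratio fell below 1 under 4 of 8 alternatives, down to 0.920 with at least 500 genes per nucleus. With TMM scaling 9 were higher and 4 lower, but the shares of all genes given here are those without this scaling. The macrophage-like nuclei were not alike. In 4 immune sub-clusters, 3 of them unnamed at that level, the summed level was 1286, 1548, 3109 and 4051 CPM. The sub-cluster at 4051 CPM was led by Vsig4, a complement receptor of resident macrophages, and the one at 3109 CPM by Mmp12, a macrophage elastase. Ankrd37 was among the 10 leading genes of the monocyte-like sub-cluster, although the 33 genes were left out of the clustering.

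Most other populations had more genes lower than higher. The counts higher and lower were 2 and 19 in osteoclast-like (20.1% and 46.2% of all genes), 0 and 22 in lymphoid-like (22.8% and 45.2%) and 2 and 22 in erythroid-like nuclei (23.6% and 38.5%). They were 2 and 20 in endothelial-like (21.5% and 41.7%) and 1 and 23 in muscle stem or progenitor-like nuclei (24.2% and 38.8%). With an interval that left out 1, they were 1 and 14 in osteoclast-like (11.1% and 16.7%), 0 and 6 in lymphoid-like (9.96% and 9.76%) and 0 and 12 in erythroid-like nuclei (11.9% and 10.4%). They were 2 and 11 in endothelial-like (11% and 13.3%) and 1 and 18 in muscle stem or progenitor-like nuclei (11.6% and 13.3%). In these 5 populations the summed ratio lay between 0.466 and 0.754 and stayed below 1 in every alternative run. Muscle fibre-like nuclei had 4 higher and 17 lower (17.7% and 49.7%), 3 and 16 with such an interval (14% and 37.2%), and a summed ratio of 0.788 (0.743 to 0.835), or 0.924 with TMM scaling. Chondro-osteogenic-like nuclei had 6 higher and 13 lower (23.1% and 33.1%), 5 and 11 with such an interval (18.6% and 24.1%), and skeletal progenitor-like nuclei had 4 higher and 15 lower (21.5% and 41.7%), 3 and 3 with such an interval (8.36% and 10.4%). The summed ratio of the progenitor-like nuclei, 0.881 (0.779 to 0.993), became 1.58 with at least 500 genes per nucleus.

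**Figure D2:**
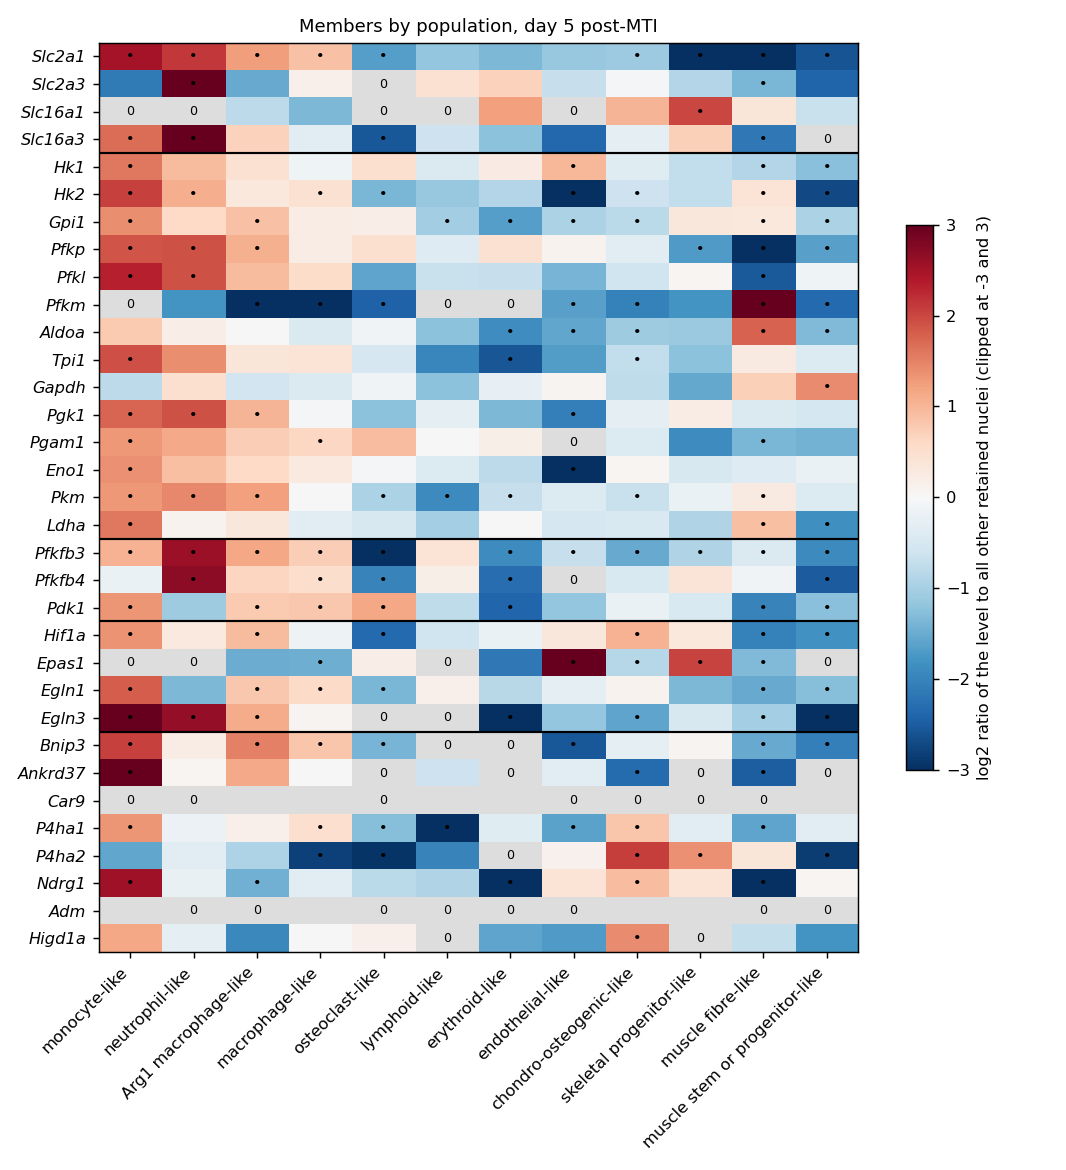
Ratio of the level of each gene in a named population to its level in all other retained nuclei at day 5 post-MTI, as log2 ratios on a colour scale, with a dot where the 95% counting interval leaves out 1, 0 where no UMI was counted in the population and grey where fewer than 20 UMIs were counted in all. The monocyte-like column is higher for 24 genes, and the muscle fibre-like column differs from it most in Pfkm.

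Over the named populations alone, and among 31 genes with at least 20 UMIs, the level was highest in monocyte-like nuclei for 18 and in neutrophil-like nuclei for 7. The interval of the highest population was clear of the next for 3 of the 18 and for 4 of the 7. The same count was not made over all genes, so these numbers have no background. The remaining 6 genes peaked elsewhere, with Pfkm and Aldoa in muscle fibre-like, Epas1 in endothelial-like, P4ha2 in chondro-osteogenic-like, Slc16a1 in skeletal progenitor-like and Gapdh in muscle stem or progenitor-like nuclei. Of these 6, the interval was clear of the next population for Pfkm and Epas1.

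Transport divided the myeloid populations. Slc2a1, the widespread glucose transporter GLUT1, stood at 286 CPM in monocyte-like, 246 CPM in neutrophil-like, 134 CPM in Arg1 macrophage-like and 91.0 CPM in macrophage-like nuclei, and at 7.36 to 31.4 CPM in the other 8 populations. The level in these 4 populations was thus above that in the other 8 named populations. Where single genes are compared across populations, unnamed nuclei are left out. Slc2a3, which encodes the high-affinity glucose transporter GLUT3, was at 275 CPM in neutrophil-like nuclei and at most 41.8 CPM elsewhere, which made it 12.2 times (7.07 to 20.2) the level of all other nuclei. Slc16a3 was likewise at 348 CPM in neutrophil-like nuclei, against 80.9 CPM in monocyte-like nuclei and 0 to 44.2 CPM in the other 10. Its ratio to all other nuclei was 15.6 (9.55 to 24.7) in neutrophil-like and 3.19 (1.64 to 5.69) in monocyte-like nuclei. Slc16a1, the lactate transporter MCT1, had no UMI in monocyte-like or neutrophil-like nuclei, which allows up to 18.7 and 43.5 CPM, and its highest level, 29.4 CPM in skeletal progenitor-like nuclei, rested on 4 UMIs. In all retained nuclei Slc2a1 stood at 28.3 CPM at day 1 and 59.7 CPM at day 5 post-MTI.

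**Figure D3:**
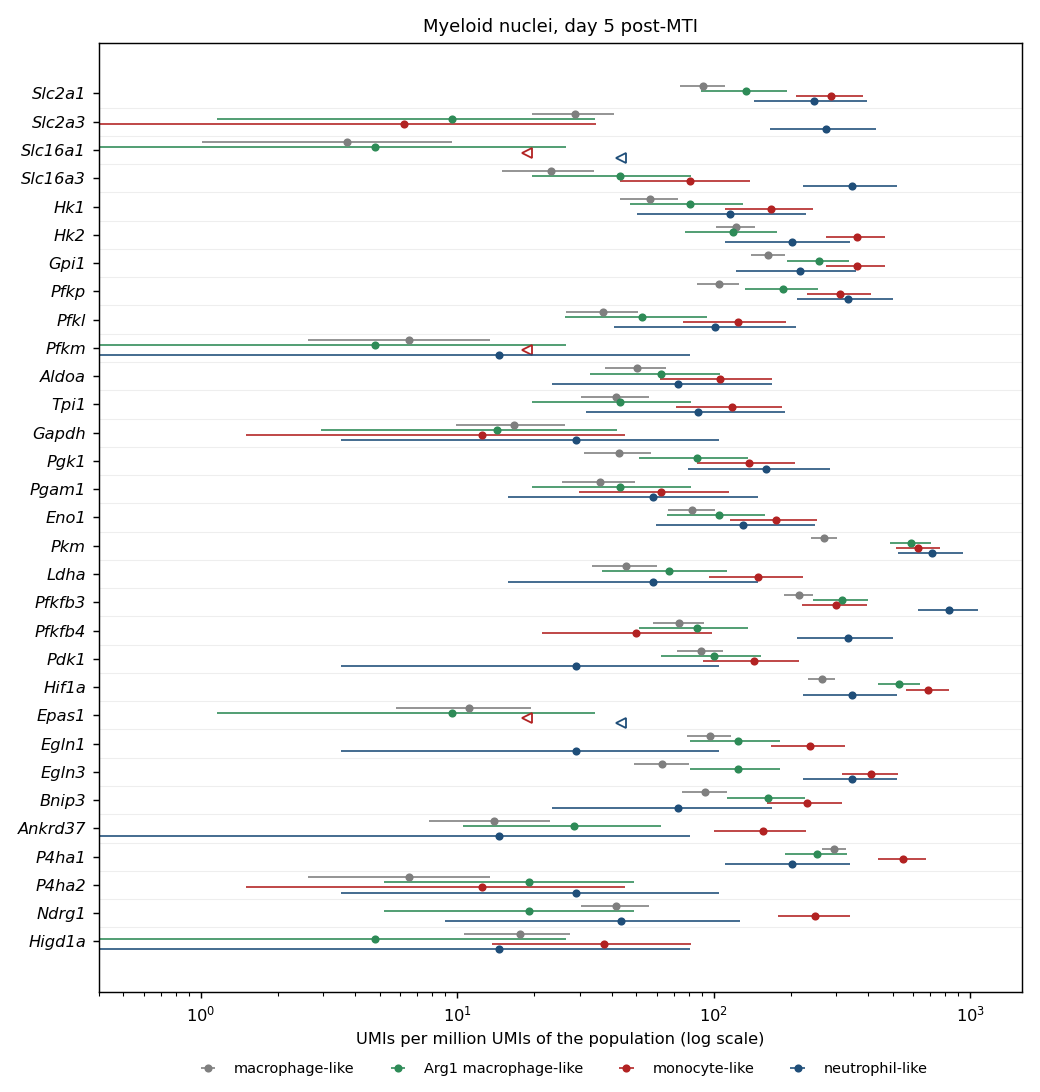
Level of each gene with at least 20 UMIs in macrophage-like, Arg1 macrophage-like, monocyte-like and neutrophil-like nuclei at day 5 post-MTI, in CPM on a log axis, with 95% counting intervals and an open triangle at the limit that a count of 0 allows. Slc2a3 and Slc16a3 are highest in neutrophil-like nuclei, and Ankrd37 and Ndrg1 in monocyte-like nuclei.

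Of the 14 glycolytic enzymes, 12 were higher in monocyte-like nuclei, 10 in neutrophil-like and 7 in Arg1 macrophage-like nuclei (17.9%, 21.6% and 18% of all genes), 11, 5 and 4 of them with an interval that left out 1 (9.6%, 8.65% and 9.16% of all genes). The largest ratios in monocyte-like nuclei were those of Pfkl, the liver-type phosphofructokinase (5.05, 2.96 to 8.21), Hk2, an inducible hexokinase (4.13, 3.08 to 5.46), Tpi1, triose phosphate isomerase (3.83, 2.23 to 6.23), and Pfkp, the platelet-type phosphofructokinase (3.67, 2.67 to 4.95). Hk2 was at 361 CPM in these nuclei and at 11 to 203 CPM in the other 11 populations. Pkm, pyruvate kinase, was at 710 CPM in neutrophil-like, 629 CPM in monocyte-like and 588 CPM in Arg1 macrophage-like nuclei, and at 72.2 to 314 CPM elsewhere. The 3 high levels of Pkm were within counting error of each other. Pgk1, phosphoglycerate kinase, was 3.76 times (1.84 to 6.89) the level of all other nuclei in neutrophil-like and 3.36 times (2.05 to 5.26) in monocyte-like nuclei. Gapdh, which encodes glyceraldehyde-3-phosphate dehydrogenase and often serves as a reference gene, was at 12.5 CPM in monocyte-like and 29.0 CPM in neutrophil-like nuclei, from 2 UMIs each, and was the only enzyme higher in muscle stem or progenitor-like nuclei (51.9 CPM, 2.65 times, 1.23 to 5.14).

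In muscle fibre-like nuclei 4 of the 14 enzymes were higher and 4 lower than in all other nuclei (17.7% and 49.7% of all genes), 3 and 4 of them with an interval that left out 1 (14% and 37.2%). Pfkm, the muscle-type phosphofructokinase, stood at 257 CPM there and at 0 to 16.6 CPM in the other 11 populations, a ratio of 25.2 (17.6 to 37.0) to all other nuclei. Aldoa, the aldolase of muscle, was at 154 CPM (3.39 times, 2.64 to 4.35), and Ldha, lactate dehydrogenase A, at 88.4 CPM (1.87 times, 1.37 to 2.51). Only Pfkm was clear of every other population, since in monocyte-like nuclei Aldoa was at 106 CPM (61.6 to 169), an interval that overlaps, and Ldha was at 149 CPM. The other isoforms of phosphofructokinase were lower in muscle fibre-like nuclei, with Pfkp at 8.56 CPM (0.0782 times) and Pfkl at 5.70 CPM (0.174 times). Aldoa is a sum over 2 gene identifiers that share this symbol. The muscle fibre-like nuclei join a cluster of 74 with Myh2 among its leading genes and a cluster of 27 with Myh8 and Myh3 among its own. Their summed levels were 1969 CPM (1836 to 2109) and 1753 CPM (1604 to 1912). Single genes were not split between these clusters.

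As shares of a gene family's UMIs, Pfkm made up 180 of 190 phosphofructokinase UMIs in muscle fibre-like nuclei (94.7%), 7 of 160 in macrophage-like nuclei and 0 of 70 in monocyte-like nuclei. The muscle enolase Eno3 took 189 of 229 enolase UMIs in muscle fibre-like nuclei (82.5%), while in monocyte-like nuclei all 28 were of Eno1. The insulin-responsive transporter Slc2a4 held 27 of 41 UMIs of the 3 glucose transporters in muscle fibre-like nuclei (65.9%), against 0 of 47 in monocyte-like nuclei, where 46 were of Slc2a1. In neutrophil-like nuclei Slc2a3 held 19 of 36 (52.8%), and Hk3, a hexokinase of myeloid cells, 31 of 53 hexokinase UMIs (58.5%). In endothelial-like nuclei 21 of 23 hexokinase UMIs (91.3%) were of Hk1. The counts of different isoforms in a share were not adjusted for gene length or capture. A share is therefore to be read for the same isoform across populations.

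**Figure D4:**
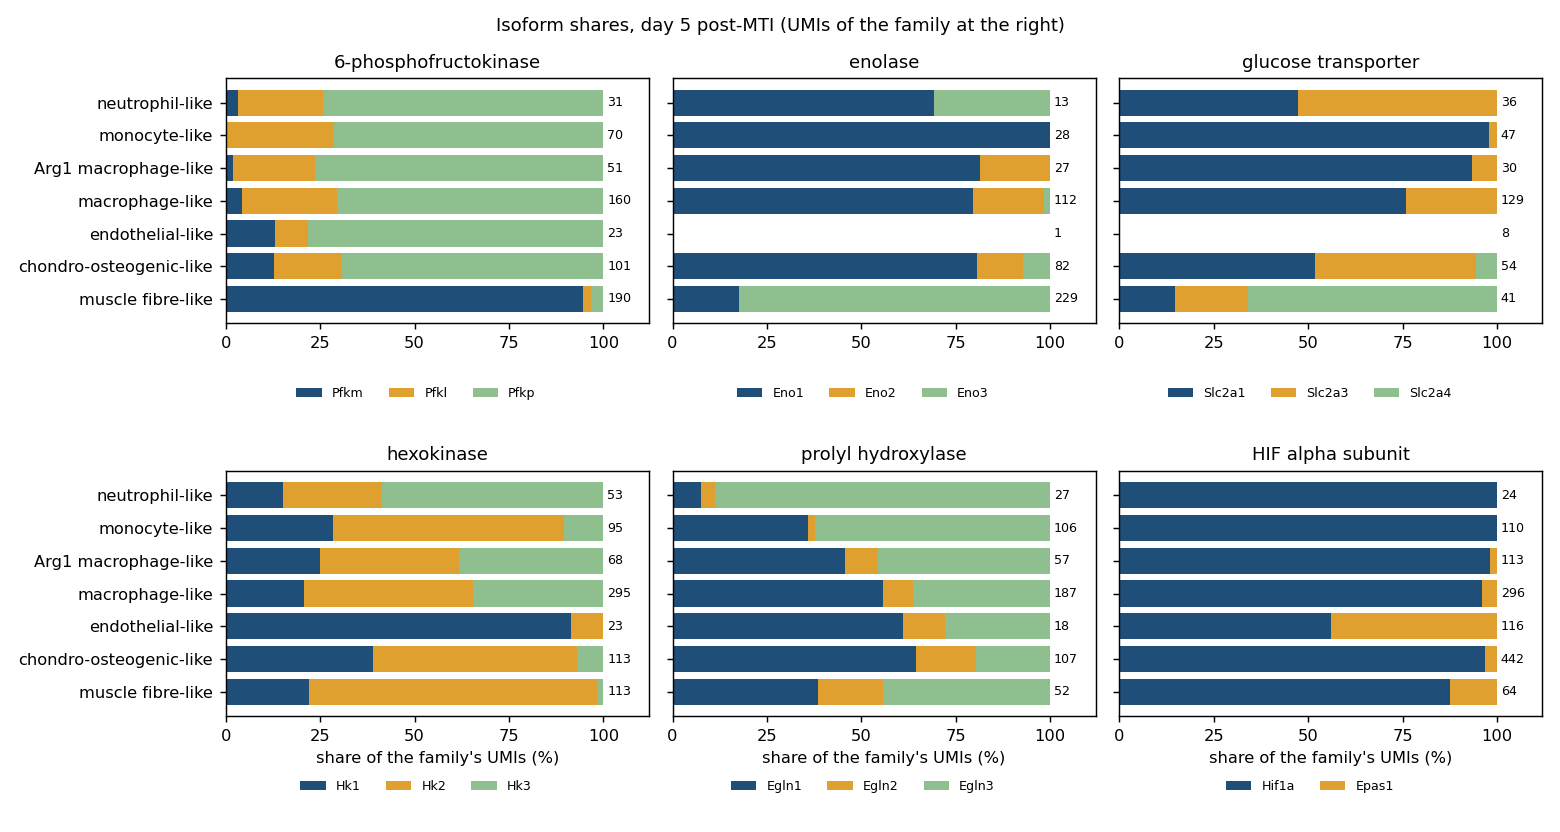
Share of the UMIs of 6 gene families that each isoform took in 7 populations at day 5 post-MTI, in percent, with the family's UMIs at the right of each bar and no bar where fewer than 10 UMIs were counted. Pfkm, Eno3 and Slc2a4 take 94.7%, 82.5% and 65.9% of their families in muscle fibre-like nuclei, and Egln3 reaches 88.9% of the prolyl hydroxylase UMIs in neutrophil-like nuclei.

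Regulators of flux were highest in neutrophil-like nuclei. Pfkfb3, whose product makes the activator of phosphofructokinase, stood at 826 CPM there, 315 CPM in Arg1 macrophage-like, 299 CPM in monocyte-like, 215 CPM in macrophage-like and 198 CPM in lymphoid-like nuclei, and at 14.6 to 116 CPM in the other 7. Its ratio to all other nuclei was 5.93 (4.44 to 7.79) in neutrophil-like nuclei. Pfkfb4, a second enzyme of this kind, was at 333 CPM in neutrophil-like nuclei, 6.41 times (3.98 to 9.87) the level of all other nuclei, and at 49.8 CPM in monocyte-like nuclei. Pdk1, a kinase that inhibits pyruvate dehydrogenase and so keeps pyruvate out of the citric acid cycle, was instead at 143 CPM in monocyte-like and 127 CPM in osteoclast-like nuclei, where it was the only one of these genes higher with an interval that left out 1 (2.23 times, 1.43 to 3.35). In neutrophil-like nuclei Pdk1 was at 29.0 CPM, from 2 UMIs. Its relative Pdk4 held 99 of 133 UMIs of this kinase family in muscle fibre-like nuclei (74.4%), and Pdk1 held 23 of 27 in monocyte-like nuclei (85.2%).

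Among the oxygen sensing genes, Hif1a, the HIF-1 alpha subunit, was at 685 CPM in monocyte-like, 530 CPM in Arg1 macrophage-like and 480 CPM in chondro-osteogenic-like nuclei, and at 58.5 to 359 CPM in the other 9 populations. Epas1, the HIF-2 alpha subunit known from endothelium, was at 282 CPM in endothelial-like and 95.7 CPM in skeletal progenitor-like nuclei, and at most 29.3 CPM elsewhere. That made it 19.2 times (13 to 28.3) the level of all other nuclei in endothelial-like nuclei, where it held 51 of 116 UMIs of the 2 alpha subunits (44.0%). No Epas1 UMI was counted in monocyte-like or neutrophil-like nuclei. Egln3, a prolyl hydroxylase that HIF itself induces, was at 411 CPM in monocyte-like and 348 CPM in neutrophil-like nuclei, 124 CPM in Arg1 macrophage-like nuclei and 0 to 63.1 CPM in the other 9. Its ratio to all other nuclei was 8.71 (6.49 to 11.6) in monocyte-like and 6.21 (3.90 to 9.47) in neutrophil-like nuclei. Egln1, the main oxygen sensor of most cells, was at 237 CPM in monocyte-like but 29.0 CPM in neutrophil-like nuclei, so that Egln3 held 24 of 27 prolyl hydroxylase UMIs in neutrophil-like nuclei (88.9%), 66 of 106 in monocyte-like (62.3%) and 68 of 187 in macrophage-like nuclei (36.4%).

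The remaining hypoxia-induced genes were split between monocyte-like and skeletal nuclei. Ankrd37 was at 156 CPM in monocyte-like nuclei, 28.7 CPM in Arg1 macrophage-like nuclei and 0 to 14.5 CPM in the other 10 populations, a ratio of 18.6 (10.7 to 31.9) to all other nuclei. Ndrg1, a stress-response gene, was at 249 CPM in monocyte-like nuclei (5.84 times, 4.04 to 8.27), and Bnip3 was at 230 CPM (4.13 times, 2.84 to 5.86). None of the 6 tested genes of this role was past the fold in neutrophil-like nuclei, where 21.6% of all genes were higher and 58% lower. P4ha1 and P4ha2 encode subunits of the hydroxylase that stabilizes collagen. P4ha1 was at 548 CPM in monocyte-like, 353 CPM in chondro-osteogenic-like and 295 CPM in macrophage-like nuclei. P4ha2 was at 90.8 CPM in chondro-osteogenic-like, 88.3 CPM in skeletal progenitor-like and 44.2 CPM in muscle fibre-like nuclei, and at 0 to 38.7 CPM in the other 9. Its ratio to all other nuclei was 4.23 (3.05 to 5.87) in chondro-osteogenic-like nuclei.

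Neutrophil-like nuclei were set against all macrophages to ask which genes separated the myeloid lineages. Of 27 genes tested, 16 were higher and 2 lower in neutrophil-like nuclei (21.3% and 50.2% of all genes), 9 and 0 with an interval that left out 1 (11.2% and 14%). The summed ratio was 2.02 (1.81 to 2.25), and 1.49 with TMM scaling. The largest differences were those of Slc16a3 (13.2 times, 7.47 to 22.9), Slc2a3 (10.7 times, 5.77 to 19.4), Egln3 (4.76 times) and Pfkfb4 (4.42 times). Pfkfb3 (3.57 times), Pgk1 (3.21 times), Pfkp (2.82 times), Slc2a1 (2.52 times) and Pkm (2.21 times) followed, each with an interval that left out 1. The neutrophil-like nuclei were shallow, with a median of 737.5 UMIs against 3821 in macrophage-like nuclei, and muscle fibre markers stood at 1754 CPM in them and at 172 CPM in macrophage-like nuclei. The part of depth and of muscle RNA in these differences was not tested.

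In monocyte-like nuclei 23 of 27 genes were higher and 2 lower than in all macrophages (17.1% and 31.5% of all genes), 20 and 0 with an interval that left out 1 (8.74% and 10%), with a median ratio of 2.34 against 0.900 over all genes and a summed ratio of 2.28 (2.12 to 2.44). This comparison was added after the levels had been seen. Ankrd37 led with a ratio of 9.53 (5.12 to 17.9), followed by Ndrg1 (6.54, 4.19 to 10.1), Egln3 (5.62, 4.04 to 7.78) and Pfkl (3.14, 1.77 to 5.36). Slc16a3, Ldha, Hk2, Slc2a1, Tpi1 and Hk1 had ratios from 2.77 to 3.06. Summed macrophage markers were at 7638 CPM in monocyte-like and 7421 CPM in macrophage-like nuclei, while monocyte markers were at 2969 and 186 CPM. The monocyte list was Ly6c2, Ccr2, Plac8, Vcan, Cd52 and Chil3. Only 3 of these genes passed the naming rule against the other immune nuclei, the fewest it allows. Vcan and Plac8 were among the leading genes.

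Arg1 macrophage-like nuclei had 9 of 27 genes higher and 3 lower than the other macrophages (14.3% and 23% of all genes), 7 and 0 with an interval that left out 1 (6.35% and 6.99%), with a summed ratio of 1.47 (1.36 to 1.59). The higher genes with an interval that left out 1 were Pkm (2.18, 1.75 to 2.70), Pgk1 (2.01, 1.10 to 3.54), Hif1a (2.01, 1.60 to 2.51), Egln3 (1.97, 1.2 to 3.13), Pfkp (1.78), Bnip3 (1.75) and Gpi1, glucose phosphate isomerase (1.58). No gene was lower with an interval that left out 1. The other macrophages were not alike in the summed level. A sub-cluster of 68 nuclei among them stood at 4051 CPM (3803 to 4311), beside 3689 CPM (3434 to 3959) in Arg1 macrophage-like nuclei.

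Macrophages of both kinds were then set against skeletal lineage-like nuclei. Of 31 genes 15 were higher and 7 lower in macrophages (29.2% and 31.7% of all genes), 15 and 6 with an interval that left out 1 (24.7% and 27.1%), and the summed ratio was 1.23 (1.17 to 1.30). Ankrd37 (5.59 times, 1.67 to 29.3), Pfkfb3 (3.66 times, 2.79 to 4.87), Slc2a1 (3.47 times, 2.30 to 5.39) and Egln3 (2.78 times, 1.80 to 4.44) were the largest. Tpi1, Pgam1, Bnip3, Pfkl, Hk2 and Gpi1 had ratios from 1.73 to 1.96. On the skeletal side were P4ha2 (0.0945, 0.0456 to 0.177), Slc16a1 (0.25), Epas1 (0.414), Ndrg1 (0.483), Higd1a, a mitochondrial hypoxia-induced gene (0.516), and Hif1a (0.663, 0.579 to 0.759).

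Within the skeletal lineage, chondro-osteogenic-like nuclei had 8 of 27 genes higher and 5 lower than skeletal progenitor-like nuclei (30.5% and 14.1% of all genes), 2 and 2 with an interval that left out 1 (8.68% and 4.99%), with a summed ratio of 1.09 (0.958 to 1.24) whose interval holds 1. With at least 500 genes per nucleus the ratio was 0.539. Higd1a was at 34.7 CPM in chondro-osteogenic-like nuclei (31 UMIs) and had no UMI in progenitor-like nuclei, which allows up to 22.1 CPM. P4ha1 was 1.92 times higher (1.28 to 3.01), while Gpi1 (0.493) and Epas1 (0.164, 0.0715 to 0.379) were lower. The directions of Higd1a, P4ha1 and Epas1 turned under other settings, among them 0.282, 0.759 and 2.00. Against all other nuclei, Hif1a (2.05, 1.82 to 2.30), P4ha1 (1.79), Higd1a (2.66) and Ndrg1 (1.90) were higher in chondro-osteogenic-like nuclei, of which Ndrg1 turned to between 0.162 and 0.363 in 3 alternatives.

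At day 1 post-fracture each population was set against the barcodes under 200 genes, where the genes summed to 1750 CPM (1719 to 1782). Muscle fibre-like nuclei stood at 1859 CPM, 1.06 times (0.985 to 1.14) this level. Immune-like nuclei stood at 1541 CPM (0.880 times, 0.782 to 0.988) and skeletal lineage-like nuclei at 2214 CPM from 85 UMIs (1.27 times, 1.01 to 1.57). All 3 ratios lay on either side of 1 over the settings tried, from 0.927 to 1.12 in muscle fibre-like, from 0.652 to 1.21 in immune-like and from 0.718 to 1.33 in skeletal lineage-like nuclei. The immune-like level pools sub-clusters from 894 CPM (15 UMIs) to 2461 CPM (38 UMIs). Summed muscle fibre markers were at 43806 CPM in the barcodes under 200 genes, 25147 CPM in immune-like nuclei and 101426 CPM in muscle fibre-like nuclei. The part of this muscle RNA in the day 1 values was not tested. Unlike the nuclei, the barcodes under 200 genes passed no mitochondrial or ribosomal limit. Mitochondrial UMIs were 0.902% of all UMIs in these barcodes. They were 0.195% in muscle fibre-like, 0.197% in immune-like and 0.221% in skeletal lineage-like nuclei. The part of this unlike filtering in the ratios was not tested either.

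Single genes stood above free RNA in muscle fibre-like nuclei at day 1. The muscle fibre markers that named these nuclei also stood above free RNA in them, by the levels given above. The part of this in the ratios of single genes was not tested. Pfkm was at 388 CPM in these nuclei and 164 CPM in the barcodes under 200 genes (2.36 times, 1.99 to 2.80), Hk2 at 238 and 127 CPM (1.88 times, 1.5 to 2.32) and P4ha2 at 35.1 and 13 CPM (2.70 times, 1.42 to 4.77). Of 31 genes 4 were higher and 12 lower than free RNA (14.1% and 44.9% of all genes), 3 and 5 with an interval that left out 1 (6.61% and 10.5%). Pfkp (0.519), Tpi1 (0.458), Epas1 (0.318), Ndrg1 (0.155) and Pfkl (0.145) were lower with an interval that left out 1. Pfkm held 155 of 168 phosphofructokinase UMIs in these nuclei, 92.3%, beside 94.7% in the muscle fibre-like nuclei of day 5 post-MTI and 68.6% in the barcodes under 200 genes.

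**Figure D5:**
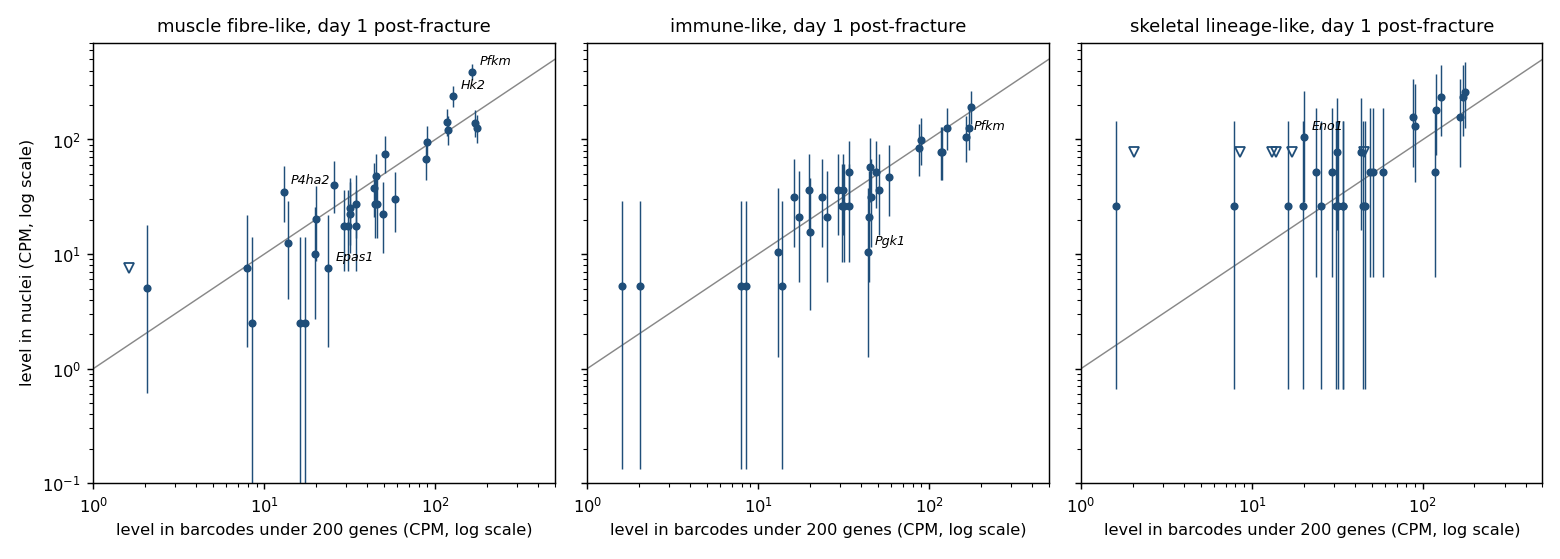
Level of each of the 33 genes in muscle fibre-like, immune-like and skeletal lineage-like nuclei at day 1 post-fracture (vertical axis) against its level in the barcodes under 200 genes (horizontal axis), both in CPM on log axes, with 95% counting intervals, the line of equal levels and an open triangle at the limit that a count of 0 allows. Pfkm, Hk2 and P4ha2 lie above the line in muscle fibre-like nuclei, while most genes of the immune-like nuclei lie on it within counting error.

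Immune-like nuclei had 3 of 31 genes higher and 7 lower than free RNA (29.8% and 23.6% of all genes), 0 and 2 with an interval that left out 1 (5.77% and 1.36%), and a summed ratio of 0.652 with TMM scaling. Slc2a1 was at 26.1 CPM in them and 34.2 CPM in free RNA, Hif1a at 193 and 176 CPM, and Egln3 at 52.2 and 34.2 CPM, all within counting error. Only Pfkm (0.636, 0.387 to 0.987) and Pgk1 (0.239, 0.0288 to 0.872) had an interval that left out 1, both lower, and Pfkm turned to 1.07 with the mitochondrial limits of the libraries exchanged. Skeletal lineage-like nuclei had 10 higher and 8 lower (26.7% and 57.2% of all genes), 1 and 0 with such an interval (4.11% and 0.63%), and a summed ratio of 0.718 with TMM scaling. There only Eno1 had such an interval (5.17, 1.39 to 13.5), from 4 UMIs.

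Against the other nuclei of day 1, muscle fibre-like nuclei had 4 of 26 genes higher and 7 lower (16.7% and 36.8% of all genes), 4 and 1 with an interval that left out 1 (10.3% and 22.3%). The summed ratio was 1.22 (1.11 to 1.33). Over the settings tried it ranged from 1.07 to 1.51, and it was 1.46 with TMM scaling. P4ha2 (3.13, 1.26 to 8.2), Pfkm (2.62, 2.05 to 3.36), Aldoa (2.05, 1.39 to 3.02) and Hk2 (1.71, 1.28 to 2.26) were higher, and Epas1 was lower (0.241, 0.0466 to 0.791). P4ha2 turned to 0.969 under another mitochondrial limit, and it was among the 10 leading genes of a muscle fibre-like cluster. At day 5 post-MTI the ratios of Pfkm and Aldoa to all other nuclei were 25.2 and 3.39. The 2 libraries differ in what the other nuclei are. At day 1 they held 1072 unnamed nuclei. Pfkm was the most counted member in unnamed clusters of 205 and 131 nuclei, with 18.7% and 17.4% of the member UMIs. Its share in muscle fibre-like nuclei was 20.9%.

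Further genes of the pathway were counted in the same comparisons, in 6 lists of 92 genes, and each count is given beside the share of all genes in that comparison. In monocyte-like nuclei 9 of 21 further hypoxia-induced genes were higher and 7 lower (17.9% and 48.1% of all genes), 7 and 4 of them with an interval that left out 1 (9.6% and 12.9%). Mxi1, a repressor of the Myc network, was at 405 CPM (3.24 times, 2.47 to 4.20), the angiogenic factor Vegfa at 367 CPM (4.3 times, 3.21 to 5.67) and Ero1l, an oxidase of the endoplasmic reticulum, at 349 CPM (4.2 times, 3.11 to 5.58). Chondro-osteogenic-like nuclei had 9 of these 21 genes higher and 7 lower (23.1% and 33.1% of all genes), 9 and 4 with such an interval (18.6% and 24.1%), including the collagen lysyl hydroxylase Plod2 at 438 CPM (7.74 times, 6.50 to 9.24). In Arg1 macrophage-like nuclei 5 of 8 pentose phosphate genes were higher and 1 lower (18% and 43% of all genes), 3 and 0 with such an interval (9.16% and 12.9%), including Pgd, which generates NADPH (220 CPM, 4.70 times, 3.33 to 6.51). Arg1 itself was not among the leading genes of these nuclei, so the values are not tied to Arg1 expression. In neutrophil-like nuclei Pygl, the liver-type glycogen phosphorylase, was at 652 CPM (11.3 times, 8.02 to 15.5), while the counts of the glycogen list, 3 of 12 higher and 6 lower, were near the shares of all genes (21.6% and 58%).

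Of 21 genes of pyruvate entry and the citric acid cycle, 0 were higher and 11 lower in monocyte-like nuclei (17.9% and 48.1% of all genes), and none of the 11 had an interval that left out 1 (12.9%). In neutrophil-like nuclei 1 was higher and 16 lower (21.6% and 58% of all genes), and 1 of the 16 had such an interval (9.75%). In osteoclast-like nuclei 15 of the 21 were higher and 1 lower (20.1% and 46.2% of all genes), 13 and 0 with such an interval (11.1% and 16.7%), among them Ogdh, a subunit of oxoglutarate dehydrogenase, at 473 CPM (2.73 times, 2.18 to 3.38). In muscle fibre-like nuclei 12 of the 21 were higher and 0 lower (17.7% and 49.7% of all genes), 10 of the 12 with such an interval (14%). There 9 of 12 glycogen genes were higher and 3 lower (17.7% and 49.7% of all genes), all 12 with such an interval (14% and 37.2%). Phka1, a phosphorylase kinase subunit of muscle, was at 1085 CPM (13.4 times, 11.7 to 15.4), and Gbe1, the glycogen branching enzyme, had a ratio of 7.77 (6.91 to 8.75). At day 1 the glycogen list had 9 of 12 genes higher and 1 lower in muscle fibre-like nuclei than in free RNA (14.1% and 44.9% of all genes), 9 and 0 with such an interval (6.61% and 10.5%). Of 9 further regulators of the HIF pathway, 2 were higher and 2 lower in monocyte-like nuclei (17.9% and 48.1% of all genes), none with such an interval (9.6% and 12.9%). Of 14 other isoforms of glycolysis, 1 was higher and 9 lower in monocyte-like nuclei (17.9% and 48.1% of all genes), 0 and 2 with such an interval (9.6% and 12.9%). In muscle fibre-like nuclei 7 of these isoforms were higher and 5 lower (17.7% and 49.7% of all genes), 6 and 4 with such an interval (14% and 37.2%).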

How the data were processed

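Both single-nucleus RNAseq libraries of the series were used. Per the file headers and labels, the authors ran Cell Ranger 7.0.1 on mm10 with introns and exons, and their matrices hold unnormalized UMI counts. The labels name a human reference, but all gene identifiers are mouse. Total counts were 9389014 UMIs in 48987 barcodes at day 1 and 5899407 in 1446 at day 5 post-MTI. The members, lists and markers were chosen with earlier results of these data known.

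Nuclei with 200 to 5000 genes, under 0.5% mitochondrial and 2.5% ribosomal UMIs (day 1) or under 5% and 2% (day 5 post-MTI), as in the methods, were clustered per library with Seurat 5.3.0 in R 4.3.3 on 2000 variable genes, with the members and listed pathway genes left out. A name needed at least 3 markers with a fold of at least 1.5, thresholds set after a first clustering was seen. No doublet caller was applied, and doublets were kept. UMIs were summed per population, by symbol, and scaled to the population's total (CPM) with exact Poisson intervals, ratios with exact conditional binomial intervals and shares of nuclei with Clopper-Pearson intervals (numpy 2.4.6, scipy 1.17.1, pandas 2.3.3). All intervals cover counting error only. With 1 library per condition no test was run. A count of 0 was taken to allow 3 counts. Named members had at least 20 UMIs in both sides together, a ratio past 1.5 and an interval leaving out 1, at most 10 per direction, and of other lists at most the 3 most counted genes past the fold. The comparison of monocyte-like nuclei with macrophages was added after the levels had been seen. TMM factors (edgeR 4.0.16), other filters, clusterings and assignments were tried as alternatives. At day 5 post-MTI, 27 barcodes under 200 genes were too few for a free-RNA level. Members outside this rule that the text gives by level were picked after their values were seen. Positions come from GENCODE and promoters from RefSeq.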

Additional observations from a re-analysis of the deposited data

How the results depend on the processing

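With 1 library per condition, leaving out a replicate was not possible, no interval covers variation between animals, and depth limits rare genes and all day 1 populations. No paired analysis was possible because each condition had 1 library. Values are summed ratios to all other nuclei of the library unless a gene or another comparison is named.

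With TMM factors the ratio was 2.63 (monocyte-like), 1.91 (neutrophil-like), 1.52 (Arg1 macrophage-like), 1.2 (macrophage-like), 0.435 (lymphoid-like), 0.466 (erythroid-like), 0.67 (endothelial-like), 0.778 (skeletal progenitor-like), 0.924 (muscle fibre-like) and 0.391 (muscle stem or progenitor-like). It was 1.49 for neutrophil-like and 2.11 for monocyte-like nuclei against macrophages, and at day 1 0.652 for immune-like and 0.718 for skeletal lineage-like nuclei against free RNA (the latter turned) and 1.46 for muscle fibre-like nuclei against other nuclei.

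With at least 500 genes per nucleus the ratio was 1.74 (neutrophil-like), 1.49 (Arg1 macrophage-like), 0.639 (lymphoid-like), 0.798 (chondro-osteogenic-like), and turned to 0.92 (macrophage-like) and 1.58 (skeletal progenitor-like). It was 1.07 for macrophages against the skeletal lineage, 1.68 for neutrophil-like nuclei against macrophages, 0.539 for chondro-osteogenic-like against progenitor-like nuclei, and 1.51 for day 1 muscle fibre-like nuclei. Ndrg1 in chondro-osteogenic-like nuclei turned to 0.363, and against progenitor-like nuclei Higd1a turned to 0.282 and P4ha1 to 0.759.

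At double the clustering resolution it was 2.58 (monocyte-like), 1.35 (Arg1 macrophage-like), 0.953 (macrophage-like, turned), 0.719 (chondro-osteogenic-like), 1.04 (macrophages against the skeletal lineage) and 0.707 (chondro-osteogenic-like against progenitor-like). Ndrg1 turned to 0.162 in chondro-osteogenic-like nuclei and Higd1a to 0.934 against progenitor-like nuclei. With the pathway genes kept in the clustering it was 0.964 (macrophage-like, turned), 1.14 (macrophages against the skeletal lineage), 1.65 (Arg1 macrophage-like against other macrophages) and 2.53 (monocyte-like against macrophages).

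With the mitochondrial limits of the libraries exchanged it was 3.17 (monocyte-like), 1.66 (neutrophil-like), 0.957 (macrophage-like, turned), 0.88 (endothelial-like), 0.801 (chondro-osteogenic-like), 1.54 (neutrophil-like against macrophages), 1.71 (Arg1 macrophage-like against other macrophages), 2.72 (monocyte-like against macrophages) and 0.897 (chondro-osteogenic-like against progenitor-like). In chondro-osteogenic-like nuclei Epas1 turned to 1.35 and Tpi1 to 1.23, and against progenitor-like nuclei Higd1a turned to 0.808, P4ha1 to 0.882 and Epas1 to 2.00. At day 1 the ratio to free RNA turned to 1.21 (immune-like, with Pfkm at 1.07) and 0.961 (skeletal lineage-like), and against other nuclei muscle fibre-like nuclei had 1.1, with P4ha2 turned to 0.969.

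With nuclei assigned by marker list without clusters it was 2.00 (neutrophil-like), 1.83 (Arg1 macrophage-like), 1.45 (macrophage-like), 1.01 (chondro-osteogenic-like), 0.74 (muscle fibre-like), 1.57 (macrophages against the skeletal lineage), 1.37 (neutrophil-like against macrophages), 1.3 (Arg1 macrophage-like against other macrophages), and against free RNA 0.953 (day 1 muscle fibre-like) and 0.78 (immune-like). In chondro-osteogenic-like nuclei Ndrg1 turned to 0.315, Tpi1 to 1.17 and Pkm to 1.03. Without the most counted gene it was 0.83 (chondro-osteogenic-like), 0.873 (muscle fibre-like), 1.38 (macrophages against the skeletal lineage), and at day 1 0.927 (muscle fibre-like against free RNA) and 1.07 (against other nuclei). The cause of these shifts was not tested.

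Turned means that a ratio whose interval left out 1 crossed 1. Of all summed ratios under alternatives, 98 stayed within the counting interval, 54 moved out of it and 8 turned, and of single genes 1097, 123 and 15 did. Those that moved include ratios that crossed 1 where the interval had held 1, for chondro-osteogenic-like nuclei (alone and against progenitor-like nuclei) and for day 1 muscle fibre-like nuclei against free RNA. Of the counts of genes higher or lower, 312 stayed within 1.5 times and 86 did not, 18 of them with a fold of 2 and 10 with TMM factors. Thinning to 1000 UMIs moved 11 of the shares of nuclei with a UMI out of their interval and left 1 within. Some alternatives named no skeletal progenitor-like, monocyte-like, erythroid-like or muscle stem or progenitor-like nuclei, and with at least 500 genes no immune-like or skeletal lineage-like nuclei were left at day 1, so these gave no value.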
